A study of Mus musculus with 8 samples.

Results

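The genes described here are those whose response to loss of Pitx3 was compared between the substantia nigra compacta (SNc) and the ventral tegmental area (VTA). They were 14666 probesets, for 13264 genes, that carry 1 gene symbol and reach a mean linear signal of 60 in at least 1 of the 4 groups of arrays, out of 35512 probesets on the array. The difference between Pitx3-/- (KO) and wild-type (WT) cells was taken in each region, and the VTA difference was subtracted from the SNc difference. This value, the regional difference, is positive where KO relative to WT was higher in SNc than in VTA. All values are on the log2 scale, on which 1 unit is a 2-fold difference, and ± gives the standard error of the fit to 2 arrays a group.

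Midbrain dopaminergic (mDA) neurons were taken from C57Bl/6 pups aged P1 to P4, all carrying 1 copy of the Th-EGFP reporter, in which EGFP marks cells that use the tyrosine hydroxylase (Th) promoter. WT pups were Pitx3+/+;Th-EGFP+/- and KO pups Pitx3-/-;Th-EGFP+/-. SNc and VTA were dissected apart, live EGFP+ cells were sorted, stored batches were pooled, and amplified RNA was hybridized to Affymetrix Mouse Gene 1.0 ST arrays, with 2 arrays for each genotype in each region, named SNc WT and SNc KO, and VTA WT and VTA KO. By the study's account the SNc of KO pups has already lost its Pitx3-positive neurons at birth while VTA still holds neurons that would have expressed Pitx3, so the sorted SNc KO and SNc WT cells are not the same mixture. By the study's methods RNA was purified in duplicate from each of the 4 cell preparations, and no source used here ties the duplicates to different animals, so that p-values rest on a spread that may be technical only.

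Pitx3 is a homeodomain transcription factor of mDA neurons that is needed for the survival of ventral SNc neurons. SNc neurons project mainly to the dorsal striatum and serve movement, whereas VTA neurons project mainly to the ventral striatum and cortex and serve reward and motivation. Dorsal SNc and VTA neurons share the marker Calb1, Otx2 marks VTA neurons, and ventral SNc neurons are known for Aldh1a1, Sox6 and Ndnf. A gene can thus differ between KO and WT because its RNA level per cell differs or because the mixture of sorted cells differs, and in pooled cells these cannot be told apart.

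The 8 arrays had medians of 6.11 to 6.24, with 55% to 58.9% of probesets above a linear signal of 60. The arrays of VTA KO differed most from each other, with a pooled standard deviation (log2) of 0.376, while the other 3 groups had 0.241 to 0.252. Regional differences named below that moved by over 1.5 times are therefore also given without each VTA KO array, for some genes as the VTA difference. Those of miRNA genes are not given in this way. General neuronal genes had mean levels of 9.43 to 9.73 on all 8 arrays. The Pitx3 probeset read 7.72 and 7.63 in SNc WT, 7.87 and 7.94 in SNc KO, 8.10 and 7.84 in VTA WT, and 8.08 and 7.92 in VTA KO. It was not lower in the KO groups, and since the sources used here give neither the deleted nor the probed part of the gene, it checks neither the labels nor the knockout. Th lay between 10.04 and 10.34 on all 8 arrays, with a regional difference of -0.20 ± 0.20.

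Unequal responses in the 2 regions were seen among neuropeptides, markers that separate SNc from VTA neurons, and markers of pericytes and ciliated cells, with single genes such as the matrix gene Postn. No single regional difference passed a Benjamini-Hochberg adjusted p under 0.05 in limma over the 22112 probesets tested (called: 0%), and the lowest adjusted p was 0.0995, for Postn. At an unadjusted p under 0.05, 2186 probesets (9.89%) differed between regions, 1222 of them (5.53%) positive and 964 (4.36%) negative. Among probesets with 1 symbol these were 1279 (8.72%), with 874 (5.96%) positive and 405 (2.76%) negative. The values below are therefore descriptions of size and spread, and the shares just given are the background against which each group of genes is counted.

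In the separate regions, 33 probesets (0.149%) passed adjustment between SNc KO and SNc WT, 16 higher (0.0724%) and 17 lower (0.0769%), and 2 (0.00904%) between VTA KO and VTA WT, both higher. Of these 2, 1 was Fst, which rose in both regions, and the other carries no single symbol. At an unadjusted p under 0.05, 8.62% of probesets differed in SNc (4.82% higher, 3.8% lower) and 10.2% in VTA (4.73% higher, 5.51% lower). With 1 array left out, the 33 SNc calls became 0 without either SNc WT array or without SNc KO replicate 2, 4 without SNc KO replicate 1, and 2 without VTA WT replicate 1 or without VTA WT replicate 2. The 2 VTA calls became 69 without VTA KO replicate 1 and 69 without replicate 2, with 10 probesets shared, and 0 without any 1 of the other 6 arrays. A group with 1 array left adds nothing to the error estimate, so without a VTA KO array the spread of the most variable group is left out of every test. Across the 14666 probesets the SNc and VTA differences, which share no arrays, had a Pearson correlation of 0.0749, given as a description since genes are not independent replicates. They had opposite signs in 7441 (50.7%).

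**Figure D1:**
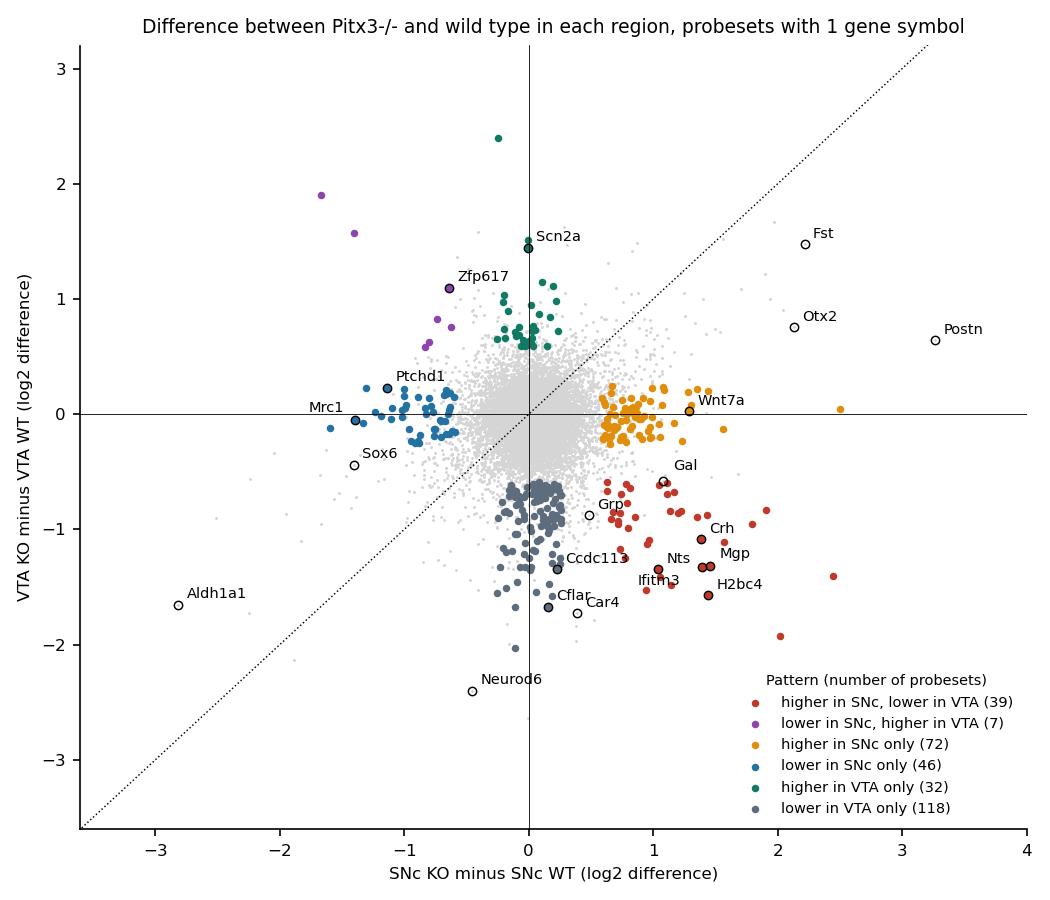
Each point is 1 of the 14666 probesets with 1 gene symbol, with the log2 difference between SNc KO and SNc WT on the horizontal axis and that between VTA KO and VTA WT on the vertical axis. Colours mark 6 patterns of unequal response at an unadjusted interaction p under 0.05, the dotted line marks equal differences, and black rings mark named genes. Postn lies far to the right at 3.26 in SNc and 0.64 in VTA, and Neurod6 at the bottom at -2.40 in VTA.

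The plot of SNc against VTA differences sorts genes into 6 patterns. A gene was taken as opposite when it differed by at least 1.5-fold in both regions with opposite signs, and as a response of 1 region when it differed by at least 1.5-fold in that region and by under 1.2-fold in the other, always at an unadjusted interaction p under 0.05. Higher in SNc KO and lower in VTA KO were 39 genes (0.266% of probesets with 1 symbol, 0.348% of all tested), while the reverse held for 7 (0.0477% and 0.339%). Higher in SNc only were 72 probesets (0.491% and 0.439%), lower in SNc only 46 (0.314% and 0.425%), higher in VTA only 32 (0.218% and 0.43%) and lower in VTA only 118 (0.805% and 0.796%). The KO arrays did not overlap the WT arrays in either region for 28 of the 39 genes and for all 7 of the reverse pattern. Over all probesets tested, KO and WT arrays did not overlap in 44% in SNc and 38.2% in VTA, and 9.42% had no overlap in both regions with opposite signs, made up of 5.4% higher in SNc and lower in VTA and 4.02% the reverse.

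Several neuropeptides were higher in SNc KO and lower in VTA KO than in WT of the same region. Of 37 measured neuropeptides and their receptors, 11 had a positive regional difference at an unadjusted p under 0.05 and 0 a negative one, against 5.96% and 2.76% of all probesets with 1 symbol. The median of the 37 was 0.22, against 0.06 over all. The 11 were Crh, Nts, Gal, Grp, Adcyap1, Nmb, Cck, Pdyn, Pomc and the receptors Sstr2 and Ntsr2. The counts were 10 positive and 0 negative when VTA KO replicate 1 was left out, and 13 and 1 when replicate 2 was. The shares over all probesets with 1 symbol also moved, to 8.53% positive and 4.54% negative without replicate 1 and to 10.9% and 4.46% without replicate 2.

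Crh, which encodes corticotropin-releasing hormone, a peptide of the stress response, read 5.76 and 5.18 in SNc WT, 6.72 and 7.0 in SNc KO, 5.90 and 6.24 in VTA WT, and 5.04 and 4.94 in VTA KO. Both SNc KO arrays lay above every other array, and both VTA KO arrays lay below every other array. The SNc difference was 1.39 and the VTA difference -1.08, giving a regional difference of 2.47 ± 0.32 (limma, adjusted p = 0.145). Its signal was near or under the linear level of 60 (5.91 on the log2 scale) in SNc WT, VTA WT and VTA KO, so that its VTA difference lay close to or under that level.

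Nts, the precursor of neurotensin, a peptide that modulates dopamine release, read 7.86 and 7.97 in SNc WT, 8.78 and 9.12 in SNc KO, 7.12 and 7.10 in VTA WT, and 5.46 and 6.08 in VTA KO. The 4 groups did not overlap, and their order was SNc KO, SNc WT, VTA WT, VTA KO. The SNc difference was 1.04, the VTA difference -1.34 and the regional difference 2.38 ± 0.31 (adjusted p = 0.145).

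Gal, the precursor of galanin, an inhibitory peptide, read 7.47 and 7.83 in SNc WT, 8.78 and 8.68 in SNc KO, 6.92 and 7.0 in VTA WT, and 6.12 and 6.64 in VTA KO. Here too the groups stood apart in the order seen for Nts, with a regional difference of 1.66 ± 0.29 (adjusted p = 0.261). Grp, the precursor of gastrin-releasing peptide and a marker of a VTA subset, read 8.22 and 8.27 in SNc WT, 8.64 and 8.82 in SNc KO, 9.91 and 9.97 in VTA WT, and 9.10 and 9.02 in VTA KO. WT cells of the 2 regions differed by -1.69, SNc minus VTA, and KO cells by -0.33, since Grp was higher in SNc KO and lower in VTA KO. Its regional difference was 1.36 ± 0.16 (adjusted p = 0.145).

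Nmb, the precursor of neuromedin B and a relative of Grp, had the same signs as Grp, with 0.43 in SNc, -0.69 in VTA and a regional difference of 1.12 ± 0.17. Pdyn, the precursor of the dynorphins, differed by 0.43 in SNc and -0.45 in VTA. In both genes the KO arrays of each region did not overlap the WT arrays of that region. Cck (cholecystokinin) and Adcyap1 (PACAP) were instead higher in SNc KO with small VTA differences: Cck differed by 1.29 in SNc and 0.31 in VTA, and Adcyap1 by 1.35 and 0.22. The somatostatin receptor Sstr2 differed by 1.05 in SNc and -0.08 in VTA. Pomc was near the detection level, at 5.56 to 5.75 in SNc and 5.35 to 6.26 in VTA.

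**Figure D2:**
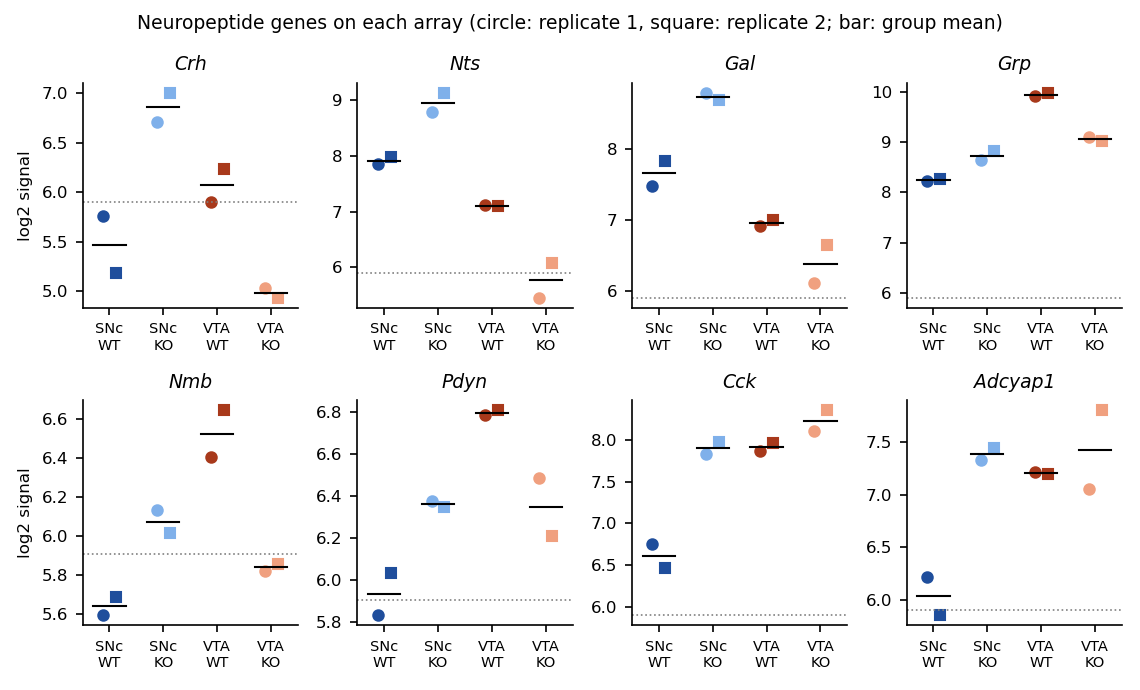
log2 signal of 8 neuropeptide genes on each array, by group, with circles for replicate 1, squares for replicate 2, a bar for the group mean and a dotted line at a linear signal of 60. In Crh, Nts, Gal, Grp, Nmb and Pdyn the SNc KO arrays lie above SNc WT and the VTA KO arrays below VTA WT, while Cck is lowest in SNc WT, at 6.76 and 6.47.

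These values did not rest on 1 VTA KO array: without replicate 1 and without replicate 2 the regional difference was 2.52 and 2.42 for Crh, 2.07 and 2.69 for Nts, 1.39 and 1.92 for Gal, and 1.40 and 1.32 for Grp. Adcyap1 moved most, to 0.76 and 1.5. Among lists of other neurons, 0 of 7 measured GABAergic markers and 2 of 4 glutamatergic markers, Slc17a6 and Slc17a8, had a positive regional difference at an unadjusted p under 0.05, and 1 of 4 glutamatergic markers did without VTA KO replicate 2. The mean level of the GABAergic markers was 6.87 and 6.91 in SNc WT, 7.43 and 7.09 in SNc KO, 6.73 and 6.84 in VTA WT, and 7.03 and 6.84 in VTA KO, and its part in the neuropeptide values was not tested.

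Markers that separate the regions differed in opposite senses. Of 20 SNc and ventral SNc markers, 10 had a negative and 1 a positive regional difference at an unadjusted p under 0.05 (list median -0.65), and of 20 VTA and dorsal SNc markers 11 were positive and 0 negative (list median 0.66). Several of these genes were picked by the study from these same arrays, so their direction is not independent evidence. Of the VTA markers, Nts, Grp, Cck and Adcyap1 are also counted among the neuropeptides above, and Slc17a6 among the glutamatergic markers. SNc markers had a median difference of -0.98 in SNc and -0.44 in VTA, lower in KO in both regions, whereas VTA markers had a median of 0.36 in SNc and 0.08 in VTA.

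Aldh1a7, a relative of the retinaldehyde dehydrogenase Aldh1a1, fell by 2.52 in SNc (limma, adjusted p = 0.0221) and differed by -0.90 in VTA (adjusted p = 0.235). It read 7.83 and 7.73 in SNc WT, 5.20 and 5.33 in SNc KO, 6.52 and 6.29 in VTA WT, and 5.76 and 5.24 in VTA KO. The WT regions were 1.38 apart and the KO regions -0.23, and the levels of the KO groups overlapped. Every KO array of Aldh1a7 lay under the detection level, the signal minimum set for testing. Neither the full falls nor a gap between the KO regions could therefore be measured, and the larger SNc fall mostly restates the WT gap. Aldh1a1, which makes retinoic acid in ventral SNc neurons, fell by 2.81 in SNc (adjusted p = 0.0125) and differed by -1.65 in VTA (adjusted p = 0.0827). Chrnb3, a nicotinic receptor subunit, Drd2, the dopamine autoreceptor, Ndnf, a secreted neurotrophic factor, and Pvalb, a calcium buffer, also fell in SNc, by 1.56, 0.98, 1.52 and 1.23, and were lower by a smaller amount in VTA KO, by -0.73, -0.44, -0.69 and -0.31. Pvalb lay above the detection level only in SNc WT, so its fall in VTA could not be measured and its smaller size there is not informative. Slc6a3, the dopamine transporter, differed by nearly the same amount in both regions, -0.98 in SNc and -0.90 in VTA. Nxph1, a neurexophilin that binds neurexins, was the SNc-list gene with a positive value at an unadjusted p under 0.05: it rose by 1.5 in SNc (adjusted p = 0.0221) and differed by 0.74 in VTA.

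Among VTA markers, Car4, a carbonic anhydrase, read 6.36 and 6.29 in SNc WT, 6.70 and 6.73 in SNc KO, 8.06 and 8.02 in VTA WT, and 6.51 and 6.12 in VTA KO. Its VTA WT arrays lay more than 1 unit above all others, and the VTA difference was -1.73 (adjusted p = 0.0513) against 0.39 in SNc. The regional difference of 2.11 ± 0.21 had an adjusted p of 0.145, which became 0.0464 when only probesets with 1 symbol were adjusted and 0.0278 without VTA KO replicate 1. Lpl, lipoprotein lipase, showed a similar split, at -0.29 in SNc and -1.32 in VTA. Fst, follistatin, an inhibitor of activin and BMP signals, rose in both regions, by 2.22 in SNc and 1.48 in VTA, with a regional difference of 0.74 ± 0.14. Slc17a6, which loads glutamate into vesicles, was higher by 1.08 in SNc KO and 0.24 in VTA KO, and the WT gap of -0.87 between SNc and VTA was -0.03 in KO.

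**Figure D3:**
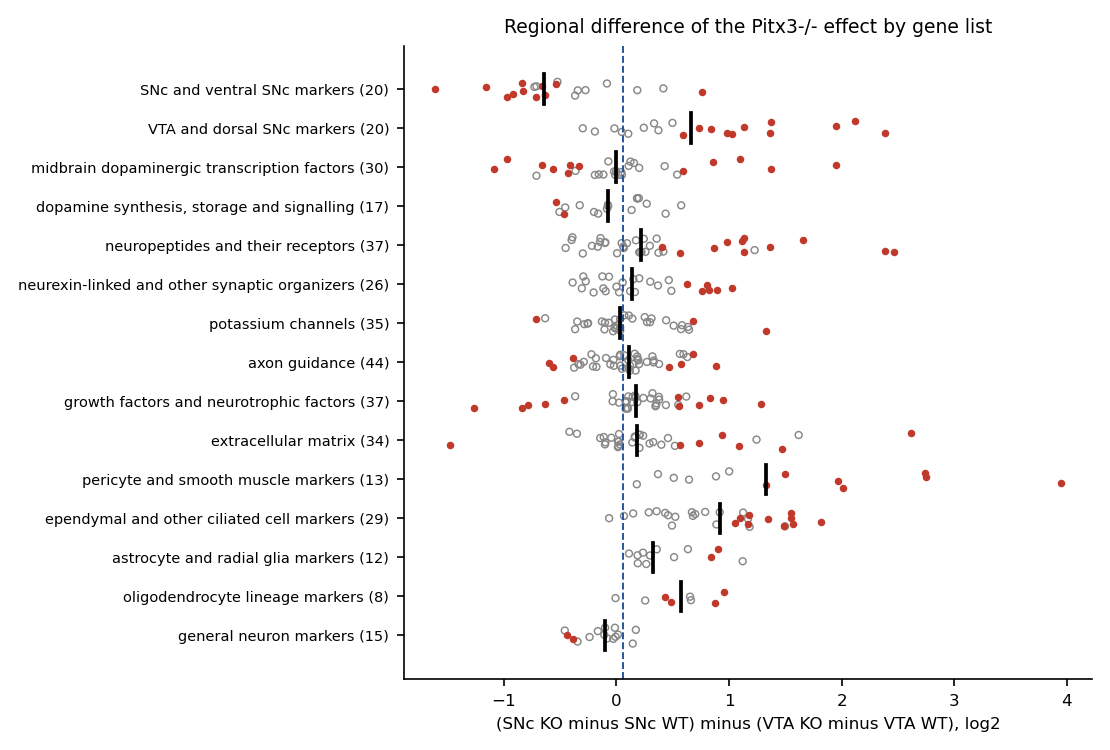
Regional difference (log2) of each measured member of 15 gene lists, with the number measured in brackets, filled points for an unadjusted interaction p under 0.05, a black bar for the list median and a dashed line for the median over all probesets with 1 symbol (0.06). Medians range from -0.65 for SNc markers to 1.33 for pericyte markers.

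Transcription factors of mDA neurons followed no single direction. Of 30 measured genes on that list, which also holds Calb1, Zdhhc2 and Klhl1 although they encode no transcription factor, 5 were positive and 7 negative at an unadjusted p under 0.05 (list median -0.01). Otx2, which specifies VTA neurons, read 6.25 and 5.62 in SNc WT, 8.03 and 8.10 in SNc KO, 7.76 and 7.79 in VTA WT, and 8.41 and 8.65 in VTA KO. It rose by 2.13 in SNc (adjusted p = 0.0375) and differed by 0.76 in VTA, where KO arrays also lay above WT. Sox6, which specifies ventral SNc neurons, read 7.77 and 7.73 in SNc WT, 6.39 and 6.30 in SNc KO, 7.15 and 7.14 in VTA WT, and 6.56 and 6.85 in VTA KO. It fell by 1.41 in SNc (adjusted p = 0.0253) and differed by -0.44 in VTA, the mirror image of Otx2 in both regions.

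Neurod6, a basic helix-loop-helix factor of a VTA subset, read 5.54 and 5.45 in SNc WT, 4.70 and 5.38 in SNc KO, 8.20 and 8.45 in VTA WT, and 5.67 and 6.18 in VTA KO. Its signal was clearly above the linear level of 60 only in VTA WT, and its VTA difference was -2.40 (adjusted p = 0.0841). Pou3f2, a POU-domain factor, differed by -1.95 in SNc and -0.87 in VTA, and its VTA difference was -0.44 without VTA KO replicate 1 and -1.29 without replicate 2. Satb1, a chromatin organizer, differed by -0.98 in SNc and -0.32 in VTA. Foxa1 and En1, early regulators of mDA neurons, differed by -0.24 and -0.27 in SNc and by 0.32 and 0.14 in VTA, small values with opposite signs. The zinc finger factor Zeb2 was higher by 0.64 in SNc KO and differed by -0.21 in VTA.

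The promoters of Otx2, Sox6 and Nts are shown as those of a gene that was higher in KO in both regions, a gene that was lower in both and a gene with opposite signs, and Pitx proteins bind the bicoid-type motif TAATCC. Capitals mark TAATCC or its reverse complement GGATTA, searched on both strands in 250 bases before to 50 after each start, from RefSeq on GRCm38.p6.
Otx2 promoter, chr14:48665060-48665359, minus strand: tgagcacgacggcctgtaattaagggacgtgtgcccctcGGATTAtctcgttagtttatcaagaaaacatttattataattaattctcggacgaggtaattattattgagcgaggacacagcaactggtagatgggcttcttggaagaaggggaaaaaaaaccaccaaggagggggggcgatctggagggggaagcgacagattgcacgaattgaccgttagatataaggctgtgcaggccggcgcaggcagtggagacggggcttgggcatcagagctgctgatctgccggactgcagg
Sox6 promoter, chr7:115801560-115801859, minus strand: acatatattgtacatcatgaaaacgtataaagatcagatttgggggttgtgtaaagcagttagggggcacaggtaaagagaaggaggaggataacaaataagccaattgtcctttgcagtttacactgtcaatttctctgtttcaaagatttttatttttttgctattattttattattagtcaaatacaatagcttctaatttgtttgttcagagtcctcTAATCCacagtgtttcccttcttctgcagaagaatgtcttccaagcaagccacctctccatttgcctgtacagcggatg
Nts promoter, chr10:102490369-102490668, minus strand: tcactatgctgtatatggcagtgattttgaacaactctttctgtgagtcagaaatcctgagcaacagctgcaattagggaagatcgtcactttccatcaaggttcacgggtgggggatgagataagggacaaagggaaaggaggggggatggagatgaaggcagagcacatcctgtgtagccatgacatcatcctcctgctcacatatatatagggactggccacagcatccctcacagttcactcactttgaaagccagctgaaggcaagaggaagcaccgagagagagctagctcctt
The motif lay at bases 40 to 45 of the Otx2 sequence, 1 of 4 Otx2 starts in the table, and at bases 222 to 227 of the Sox6 sequence, 1 of 6 starts. For these 2 genes the start shown was chosen because its window held the motif. No match was found in the single Nts window. Of all 32851 promoters 7.06% held it, and of the 10563 of 13264 genes that had an entry, 7.08% did, against 8.14% of the 970 genes at an unadjusted interaction p under 0.05. These matches are descriptions of the letters in these windows.

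Extracellular matrix and secreted growth factors held the gene with the lowest p of all. Postn, which encodes periostin, a secreted matrix protein, read 5.52 and 5.33 in SNc WT, 8.58 and 8.80 in SNc KO, 6.95 and 6.95 in VTA WT, and 7.51 and 7.67 in VTA KO. It rose by 3.26 in SNc (adjusted p = 0.00268) and differed by 0.64 in VTA (adjusted p = 0.222), and its order turned from lowest in SNc WT to highest in SNc KO. The regional difference was 2.62 ± 0.18, between 2.51 and 2.73 with any 1 array left out, and its adjusted p of 0.0995 became 0.0152 when only probesets with 1 symbol were adjusted and 0.0464 without VTA KO replicate 1.

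Adamts6, a secreted metalloprotease, moved the other way: it fell by 1.60 in SNc (adjusted p = 0.0237) and differed by -0.12 in VTA. It read 6.47 and 6.37 in SNc WT and 4.71 to 5.34 on the other 6 arrays. Those 6 arrays all lay under the detection level, so a fall in VTA could not have been measured. Sulf1, which trims heparan sulfate, rose by 1.94 in SNc (adjusted p = 0.00744) and differed by 1.0 in VTA (adjusted p = 0.0827). Of 34 measured matrix genes, 6 were positive and 1 negative at an unadjusted p under 0.05 (list median 0.18). Leaving out VTA KO replicate 1 gave 11 and 3, and leaving out replicate 2 gave 4 and 1.

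Of 37 growth factors and neurotrophic factors, 6 were positive and 5 negative, against 11 and 4 when VTA KO replicate 1 was left out and 6 and 3 when replicate 2 was. Bmp5, a bone morphogenetic protein, differed by 0.78 in SNc and -0.05 in VTA, and Fstl1, a follistatin-like protein, by 0.93 and -0.01. Pdgfc, a platelet-derived growth factor, differed by -0.79 in SNc and 0.48 in VTA, and Fgf20, a fibroblast growth factor of SNc neurons, by -0.88 and -0.25. Of 13 genes of retinoic acid handling, Crabp2, a retinoic acid carrier, and Dhrs3, which reduces retinaldehyde, were higher in SNc KO, by 0.99 and 0.84, with VTA differences of -0.20 and 0.01. The regional difference of Dhrs3, 0.83 with all arrays, was 0.55 without VTA KO replicate 1 and 1.11 without replicate 2, and 1 member of the list was positive without replicate 1. The other 2 genes of that list at an unadjusted p under 0.05 were Aldh1a1 and Aldh1a7, of opposite sign.

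**Figure D4:**
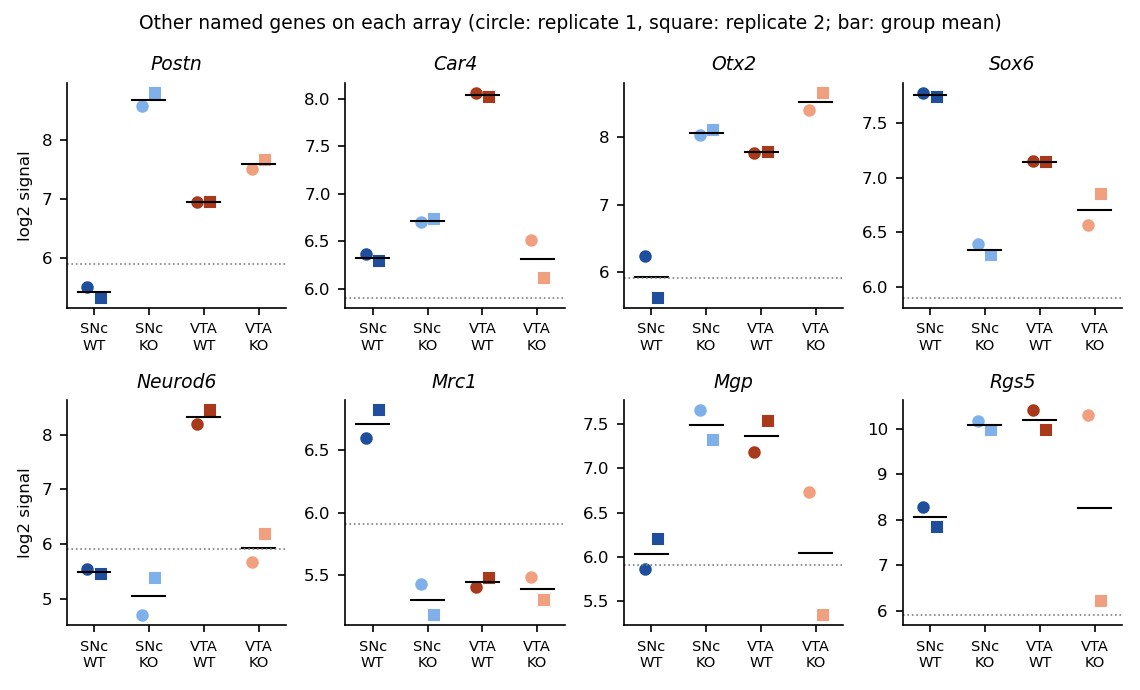
log2 signal of Postn, Car4, Otx2, Sox6, Neurod6, Mrc1, Mgp and Rgs5 on each array, by group, with circles for replicate 1, squares for replicate 2, a bar for the group mean and a dotted line at a linear signal of 60. Postn is lowest in SNc WT (5.52 and 5.33) and highest in SNc KO (8.58 and 8.80), while the VTA KO arrays of Rgs5 read 10.29 and 6.22.

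Proteins that organize synapses had a positive regional difference at an unadjusted p under 0.05 in 6 of 26 measured genes and a negative one in 0 (list median 0.14). Cbln1, a cerebellin that bridges neurexins to receptors on the opposite cell, rose by 1.54 in SNc (adjusted p = 0.0375) and differed by 0.72 in VTA. Cbln4 and C1ql1, of the same C1q-like family, were higher in SNc KO by 0.52 and 0.78 and differed by -0.29 and -0.24 in VTA. Nxph4, a neurexophilin, differed by 0.56 and -0.33, and Cbln2 by 0.75 and 0.12. The regional difference of Cbln2, 0.63, was 0.85 without VTA KO replicate 1 and 0.41 without replicate 2. The family thus held both genes of opposite signs and genes of like sign with unequal size.

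Receptors and channels held regional differences of both signs at an unadjusted p under 0.05. Over all probesets with 1 symbol 5.96% were positive and 2.76% negative. Of 35 potassium channels 2 were positive and 1 negative, of 26 sodium, calcium, HCN and TRPC channels 2 and 1, and of 38 nicotinic, glutamate and GABA-A receptor subunits 2 and 3. In the same order these counts became 4 and 2, 2 and 2, and 2 and 3 when VTA KO replicate 1 was left out, and 4 and 3 (of 33), 4 and 2, and 4 and 3 when replicate 2 was. The leak channel Kcnk9 rose by 1.90 in SNc (adjusted p = 0.0221) and differed by 1.21 in VTA. The NMDA receptor subunit Grin2a rose by 1.42 in SNc (adjusted p = 0.0237) and differed by 0.70 in VTA. Trpc4 and Trpc5, related cation channels, differed in their regional pattern: Trpc4 by 1.17 in SNc and -0.08 in VTA, and Trpc5 by 0.87 and 1.49. Gabrg1, a GABA-A receptor subunit, was higher in SNc KO by 0.46 and differed by -0.41 in VTA. The nicotinic subunits Chrna4 and Chrnb4 differed by -0.15 and -0.66 in SNc and by 0.43 and 0.17 in VTA, and the VTA difference of Chrnb4 was 0.47 without VTA KO replicate 1 and -0.12 without replicate 2.

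Axon guidance genes were positive in 4 and negative in 3 of 44 measured. Nrp2, a semaphorin receptor, read 6.92 and 6.79 in SNc WT and 7.68 and 7.74 in SNc KO, but 7.93 to 8.06 on the 4 VTA arrays. Its SNc difference was 0.86 and its VTA difference -0.03, so that SNc KO came close to VTA without reaching its range. Epha5, an ephrin receptor, differed by -0.76 in SNc and -0.19 in VTA, and Epha4 by -1.16 and -0.56. The regional difference of Epha4, -0.60, was -0.39 without VTA KO replicate 1 and -0.81 without replicate 2. Among 24 cadherins and protocadherins, 2 were positive and 3 negative, or 4 and 4 without VTA KO replicate 1: Cdh11 fell by 1.16 in SNc (adjusted p = 0.0397) and differed by -0.39 in VTA, and Cdh7 rose by 1.25 in SNc (adjusted p = 0.0221) and differed by 0.85 in VTA.

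The largest values of the pattern higher in SNc KO and lower in VTA KO belonged to genes that are not specific to neurons. Apart from Crh, the genes named by size were H2bc4, a histone H2B gene (3.01 ± 0.96), Mgp, matrix Gla protein (2.77 ± 0.61), Ifitm3, an interferon-induced membrane protein (2.71 ± 0.68), Lgals1, galectin-1 (2.62 ± 0.82), and Ppic, cyclophilin C (2.47 ± 0.84). Mgp read 5.86 and 6.21 in SNc WT, 7.65 and 7.32 in SNc KO, 7.19 and 7.53 in VTA WT, and 6.73 and 5.35 in VTA KO. The SNc KO arrays lay above SNc WT and overlapped VTA WT, and the VTA KO arrays were far apart.

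Markers of pericytes and smooth muscle, the contractile cells of vessel walls, had the highest list median, 1.33, with 7 of 13 measured genes positive at an unadjusted p under 0.05 and all 13 above 0. Their mean level was 6.05 and 6.00 in SNc WT, 7.09 and 7.0 in SNc KO, 7.30 and 6.90 in VTA WT, and 7.25 and 5.93 in VTA KO. It was higher on both SNc KO than on both SNc WT arrays and low on VTA KO replicate 2 alone among VTA arrays. Rgs5, a defining pericyte gene, read 8.27 and 7.83 in SNc WT, 10.16 and 9.98 in SNc KO, 10.40 and 9.96 in VTA WT, and 10.29 and 6.22 in VTA KO. Another, Pdgfrb, differed by 1.18 in SNc and -0.32 in VTA (0.21 in VTA without VTA KO replicate 2), and Cspg4 was near the detection level, at group means of 5.59 to 5.95. Acta2 and Vtn differed by 1.79 and 1.91 in SNc and by -0.95 and -0.83 in VTA, and 4 members in all (Acta2, Higd1b, Rgs5 and Vtn) fell in the opposite pattern.

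Without VTA KO replicate 2 the VTA difference was 0.11 for Rgs5, 0.23 for Acta2 and 0.09 for Vtn, against -3.96, -2.14 and -1.76 without replicate 1. The list median was 0.78 without replicate 2, with 7 of 13 members positive, and 1.95 without replicate 1, with 11 of 12. For Mgp, Ifitm3, Lgals1, Ppic and H2bc4 the VTA difference without replicate 2 was -0.63, -0.60, -0.49, -0.38 and -0.72, so that the sign held but Lgals1 and Ppic no longer reached 1.5-fold. Of the 39 genes of this pattern, 37 kept it without replicate 1, 17 without replicate 2 and 15 in both settings. The part of pericyte content in these values was not tested.

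**Figure D5:**
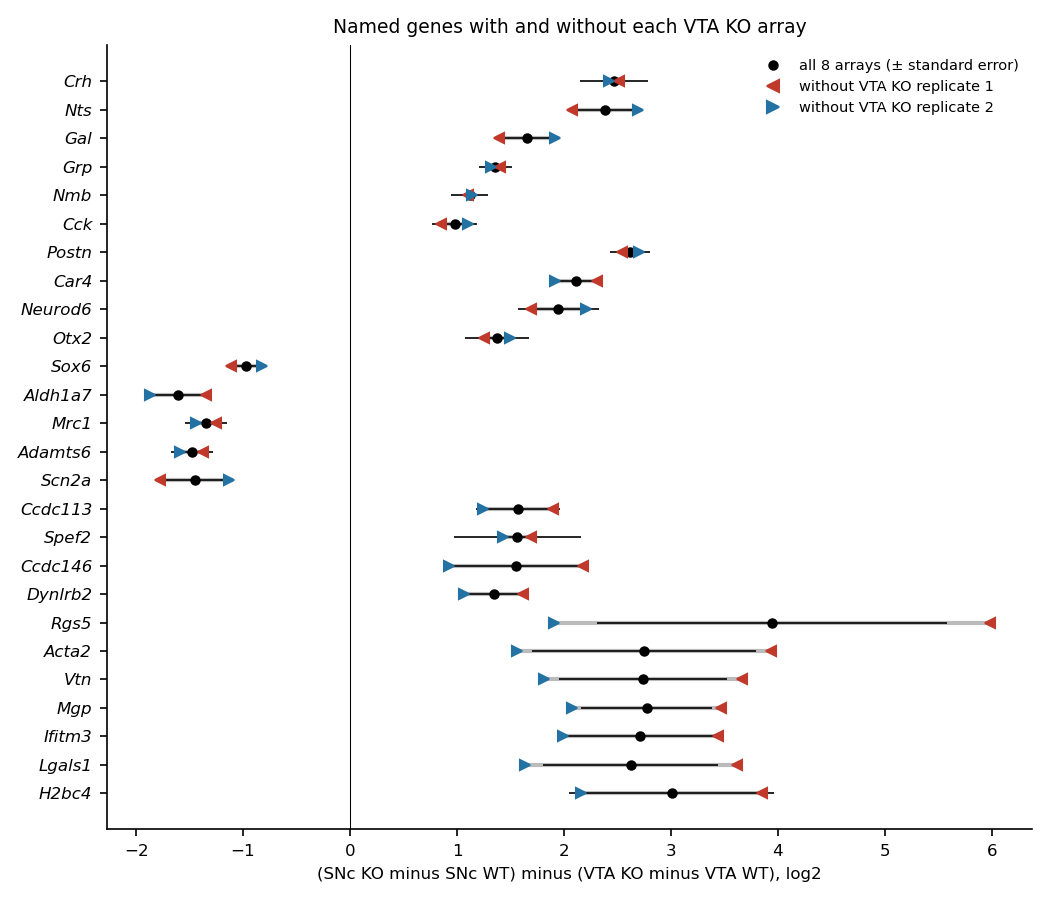
Regional difference (log2) of 26 named genes from all 8 arrays (black, with the standard error) and without each VTA KO array (red and blue triangles). Neuropeptides and markers of mDA neurons lie near their value from all arrays, while Rgs5 spans 1.91 to 5.98, and Lgals1, at 2.62 from all arrays, lies at 3.61 without replicate 1 and 1.64 without replicate 2.

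Lower in VTA KO only were 118 probesets, among them 7 genes of the list of ciliated cell markers (Ak7, Ccdc113, Ccdc146, Cfap43, Dnah5, Dnah9 and Dynlrb2). The genes named by size were Cflar, an inhibitor of caspase-8 (1.82 ± 0.52), and the cilia genes Ccdc113 (1.57 ± 0.40), Spef2 (1.56 ± 0.59) and Ccdc146 (1.55 ± 0.59), given as regional differences. Ccdc113 read 4.67 and 4.88 in SNc WT, 5.17 and 4.84 in SNc KO, 8.03 and 7.46 in VTA WT, and 6.72 and 6.08 in VTA KO. It was thus under a linear signal of 60 on all 4 SNc arrays, where a lower level in KO could not have been measured. The same held for 46 of the 118 probesets, whose SNc WT and SNc KO means were both under that signal and which entered the comparison through VTA alone. Without VTA KO replicate 1 and without replicate 2 the regional difference was 2.43 and 1.22 for Cflar and 2.17 and 0.92 for Ccdc146. Cflar had a second probeset at 0.31, the 5 probesets of Cfap43 lay between -1.0 and 1.65 with 2 of them negative, and the 15 of Spef2 were all positive, from 0.07 to 2.62.

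The list of ependymal and ciliated cell genes had 29 measured members, of which 10 had a positive regional difference at an unadjusted p under 0.05 and 0 a negative one. The median regional difference was 0.92, the median SNc difference 0.10 and the median VTA difference -0.88. Their mean level was 5.90 to 6.04 on the SNc arrays, 8.02 and 7.67 in VTA WT, and 7.45 and 6.61 in VTA KO. Foxj1, the master regulator of motile cilia, had group means of 5.80 to 6.33, while Rsph1, of the radial spoke, had means of 9.57 for VTA WT and 8.35 for VTA KO. The list median was 1.38 without VTA KO replicate 1, with 24 members positive, and 0.34 without replicate 2, with 8, where 8.53% and 10.9% of all probesets with 1 symbol were positive. In 14 of the 29 members, and in 5 of the 10, both SNc group means were under a linear signal of 60, so that these were measured through VTA alone. Of the 118 probesets in this pattern, 96 kept it without replicate 1, 68 without replicate 2 and 53 in both settings. Ciliated cells are not mDA neurons, and the part of such cells in the sorted pools was not tested.

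Lists of oligodendrocyte lineage and of astrocyte and radial glia markers had the same sign with smaller values. Microglia and macrophage markers had a median of -0.24. Of 8 oligodendrocyte lineage markers, 4 (Olig1, Olig2, Mbp and Mag) were positive, with a median of 0.57 and mean levels of 5.95 to 6.00 in SNc WT, 6.16 and 6.27 in SNc KO, 6.48 and 6.43 in VTA WT, and 6.29 and 6.02 in VTA KO. Of 12 astrocyte and radial glia markers, 2 were positive, the glutamate transporter Slc1a3 and the fatty acid carrier Fabp7, with a median of 0.33. Of 8 markers of dividing cells, 1 was positive, Birc5, with a median of 0.45. Without VTA KO replicate 1 the positive members were 6 of 12 astrocyte and radial glia markers and 5 of 8 markers of dividing cells, with medians of 0.52 and 0.80, and without replicate 2 they were 2 and 1, with medians of 0.23 and 0.21. Fabp7 was then 1.13 and 0.55, against 0.84 with all arrays, and Birc5 1.04 and 0.50, against 0.77. The endothelial list had 3 measured members, of which Cldn5, a tight junction protein, was positive at 0.40 ± 0.15, and without either VTA KO array 0 of the 3 were.

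Lower in SNc KO only were 46 probesets, among them the myeloid genes Mrc1 and C3ar1. Of the 46, 23 kept the pattern without VTA KO replicate 1, 20 without replicate 2 and 15 in both settings, and in 6 both VTA group means were under a linear signal of 60. Mrc1, the mannose receptor of macrophages, read 6.59 and 6.81 in SNc WT and 5.19 to 5.48 on the other 6 arrays. It fell by 1.40 in SNc (adjusted p = 0.038), with -0.05 in VTA, where all 4 arrays were under a linear signal of 60, and a regional difference of -1.35 ± 0.20 (adjusted p = 0.224). C3ar1, the receptor for complement C3a on myeloid cells, read 7.02 and 6.78 in SNc WT and 5.60 to 6.27 on the other 6 arrays, with a regional difference of -1.17 ± 0.25. Both genes were highest on the SNc WT arrays without overlap. Of 6 measured microglia and macrophage markers, Mrc1 and Cd68 were negative at an unadjusted p under 0.05, and Cx3cr1, a defining microglial gene, was not (0.20). In all, 3 of the 6 had a regional difference above 0. Cd68 was near the linear level of 60, at 6.11 and 5.85 in SNc WT and 5.37 to 5.81 on the other 6 arrays. The list mean was 6.2 and 6.24 in SNc WT against 5.82 to 5.97 elsewhere. Of this list, 1 member was negative without VTA KO replicate 1. The part of myeloid cells was not tested.

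Ptchd1, a patched-domain membrane protein, was also named in this pattern at -1.37 ± 0.38, but its other probeset read 0.16. Srsy, a multicopy gene of the Y chromosome, was named at -1.25 ± 0.50, and its 19 probesets, which share sequence, lay between -1.25 and -0.55. The named probeset was -0.76 without VTA KO replicate 1 and -1.75 without replicate 2. Kdm5d, another Y-linked gene, was -0.39, and since the sources used here do not give the sex of the pups in each pool, sex and region by genotype cannot be told apart for such genes.

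Higher in SNc KO only were Wnt7a, a secreted Wnt ligand, Nfib, a nuclear factor of developing brain, the matrix protein biglycan (Bgn) and Hmcn1, hemicentin. Wnt7a read 5.52 and 5.45 in SNc WT, 6.59 and 6.95 in SNc KO, and 6.15 to 6.41 on the 4 VTA arrays. It was lowest in SNc WT and highest in SNc KO, with a regional difference of 1.26 ± 0.22 (adjusted p = 0.264). Nfib was 1.26 ± 0.44 and its second probeset 1.1, but its SNc KO arrays read 6.79 and 5.79. For Bgn the value was 2.07 without VTA KO replicate 1 and 0.86 without replicate 2, against 1.47 with all arrays. Hmcn1 was named by a probeset at 1.68, yet of its 23 tested probesets 10 were positive and 13 negative, from -1.99 to 2.45, so that no direction can be given for the gene. Of the 72 probesets in the pattern, 42 kept it without VTA KO replicate 1, 41 without replicate 2 and 28 in both settings.

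Higher in VTA KO only were Scn2a, a voltage-gated sodium channel of axons, Klf12, a Krüppel-like repressor, the zinc finger gene Zfp605, and Chd7, a chromatin remodeller. Scn2a read 7.98 and 8.26 in SNc WT, 8.00 and 8.23 in SNc KO, 7.17 and 7.17 in VTA WT, and 8.29 and 8.94 in VTA KO. VTA WT was lowest and VTA KO highest while the 2 SNc groups overlapped, and 13 of its 14 tested probesets had a negative regional difference, from -1.45 at the named one to a median of -0.38. Klf12 differed by 0.90 in VTA and -0.17 in SNc. Of the 32 probesets in the pattern, 21 kept it without VTA KO replicate 1, 24 without replicate 2 and 15 in both settings, and in 8 both SNc group means were under a linear signal of 60. The 18 probesets of Chd7 disagreed, 10 positive and 8 negative, and the named one, at -1.04, was -1.43 and -0.65 without VTA KO replicates 1 and 2.

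Lower in SNc KO and higher in VTA KO were 7 genes, of which 3 met the naming rule. Tmem167, a Golgi membrane protein, read 7.74 and 7.98 in SNc WT, 7.27 and 6.78 in SNc KO, 6.44 and 5.99 in VTA WT, and 6.78 and 6.81 in VTA KO. Uevld, which joins ubiquitin-conjugating and lactate dehydrogenase domains, differed by -0.80 in SNc and 0.62 in VTA, and the zinc finger gene Zfp617 by -0.64 and 1.1. The regional difference of Zfp617, -1.74 with all arrays, was -2.37 without VTA KO replicate 1 and -1.1 without replicate 2. KO and WT arrays did not overlap in either region for any of the 3. A second probeset of Tmem167 read 0.46 and that of Uevld -0.04, and of the 7 genes 4 kept the pattern without VTA KO replicate 1, 4 without replicate 2 and 1 in both settings.

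Genes tied to dopamine itself had a median regional difference of -0.08, against 0.06 over all probesets with 1 symbol. Of 17 genes of dopamine synthesis, storage and signalling, 0 were positive and 2 negative at an unadjusted p under 0.05. The shares over all probesets with 1 symbol were 5.96% and 2.76%. The 2 genes were Drd2 (-0.54 ± 0.14) and Ddc, which makes dopamine from L-dopa (-0.47 ± 0.18). Of 8 genes that the study names as Pitx3 targets, Aldh1a1 and Drd2 were negative at an unadjusted p under 0.05, while Fgf10 rose in SNc by 1.97 with 1.67 in VTA and Rgs6 fell by 2.25 with -1.73 in VTA, regional differences of 0.30 and -0.52. Of 13 familial Parkinson disease genes 1 was negative, Dnajc6, which uncoats clathrin vesicles (-0.50 ± 0.15). Of 16 apoptosis and p53 genes 0 were at an unadjusted p under 0.05, and of 16 immediate early and stress genes Fos and Hspa1a were positive, at 0.86 and 1.09.

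MicroRNA genes had 11 of 110 probesets at an unadjusted p under 0.05, 7 negative and 4 positive, a share near the 8.72% of all probesets with 1 symbol. Mir7b and the neighbours Mir301b and Mir130b, chosen after their values were seen, are shown with their mature sequences because a miRNA acts through its seed, bases 2 to 8, in capitals. The sequences are from RefSeq on GRCm38.p6, and no probeset tells the arms of a precursor apart.
mmu-miR-7b-5p, chr17:56243017-56243040, plus strand: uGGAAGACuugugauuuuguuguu
mmu-miR-301b-5p, chr16:17124456-17124477, minus strand: gCUCUGACuagguugcacuacu
mmu-miR-130b-3p, chr16:17124071-17124092, minus strand: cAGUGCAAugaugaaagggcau
Mir7b read 7.81 and 7.67 in SNc WT, 6.76 and 6.06 in SNc KO, 6.65 and 6.82 in VTA WT, and 6.23 and 7.08 in VTA KO. It was highest on the SNc WT arrays, with -1.33 in SNc, -0.07 in VTA and a regional difference of -1.26 ± 0.46. The VTA KO arrays of Mir7b lay on either side of its VTA WT arrays, so the sign of its VTA difference depended on the array. Mir301b differed by -0.80 in SNc and 0.14 in VTA and Mir130b by -0.47 and 0.06, both close to the detection level, at group means of 5.18 to 5.98 and 5.53 to 6.00. No entry was found for miR-301b-3p.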

How the data were processed

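Expression was measured on 8 single-channel arrays. The deposited values are log2 signals, summarised and normalized by the authors with RMA (RMA Express by the methods). For the RMA version and genome build: not given in the sources used here. The submitters' values were used without further normalization. The methods' LPE test was not used for this contrast. Symbols come from the platform annotation, with 21789 probesets of 1 symbol, 1621 of several and 12102 of none. Gene IDs were looked up in a GRCm38.p6 gene table, which changed 0 symbols.

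limma 3.58.1 in R 4.3.3 was fitted with 1 mean per group to all 8 arrays (4 residual and 2.4 prior degrees of freedom), over the 22112 probesets whose mean linear signal reached 60 in some group. The number of arrays limits the precision: the median standard error was 0.16 for a region and 0.23 for the regional difference. Calls used a Benjamini-Hochberg adjusted p under 0.05 over all probesets tested. The calling was tested on simulated data.

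Genes named from a pattern were the 6 (opposite) or 4 (1 region) of largest absolute regional difference with a group mean of at least 100, KO and WT arrays not overlapping in the region of the effect, and no predicted, receptor-family or small RNA symbol. Members of 31 gene lists at an unadjusted p under 0.05 could also be named, with the probeset of highest mean. Of these lists, RGS proteins had 2 of 18 positive, serotonergic and noradrenergic markers 0 of 1, and red blood cell markers none measured. Slc6a3, Fgf10, Rgs6, the miRNA genes, Y-linked genes and Xist, markers given at low level (Cspg4, Foxj1, Rsph1, Cx3cr1) and the genes without VTA KO replicate 1 were named outside this rule, after their values were seen. Members and lists were chosen with earlier results of these data known. Alternatives were other filters, scalings, variance models, array weights, a replicate block, adjustment over probesets with 1 symbol, and leaving out each array. The lists' values under these, and counts without an array over the same probesets, were added after seeing the data.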

Additional observations from a re-analysis of the deposited data

How the results depend on the processing

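The count of 0 called regional differences held under other filters, scalings, variance models and array weights. With an array left out, its group keeps 1 array, which is assumed to vary like the other groups. The count was 3 when only probesets with 1 symbol were adjusted (Postn, Car4 and 1 Hmcn1 probeset), 15 without VTA KO replicate 1 and 0 without any other array, and 1490 at an unadjusted p of at most 0.05 with 1.5-fold. Positive values at an unadjusted p under 0.05 ranged from 704 to 2237 over the arrays left out and negative ones from 669 to 1705, and adjustment over 1 symbol left 461 negative. After subtracting array medians the split was 993 to 1119, and after quantile normalization 1133 to 1078. SNc calls were 14 without a filter, 89 with array weights, 97 over 1 symbol, and 0 to 31 over arrays left out. VTA calls were 0 without a filter, with a variance trend and with array weights, 7 at a signal of 100, 10 after subtracting medians, 8 after quantile normalization, 21 over 1 symbol, and 0 to 69 over arrays left out. The filter was re-applied without the array. Over the same 22112 probesets, VTA calls were 65 and 30 without VTA KO replicates 1 and 2, regional calls 13 without VTA KO replicate 1, and SNc calls 1 without SNc KO replicate 1. With the replicate block, regional calls stayed at 0 while SNc calls were 3 and VTA calls 0. Deviations of same-numbered arrays correlated at 0.006 to 0.098 across probesets. Each group gives a single deviation, so these values cannot decide whether same-numbered arrays were processed together. Patterns ranged, over arrays left out, from 26 to 65 (higher in SNc, lower in VTA), 8 to 17 (the reverse, 11 without a filter), 47 to 109 (higher in SNc only), 26 to 70 (lower in SNc only), 24 to 130 (higher in VTA only) and 62 to 422 (lower in VTA only, the highest without VTA KO replicate 2). Under 1.1-fold in the other region, the 4 counts of 1 region were 44, 24, 20 and 62. Of 135 named genes 0 reversed, and 5 (Lgals1, Ppic, Car4, Rgs5 and Postn) passed adjustment in some setting. Most of the 135 were chosen from these same arrays by an unadjusted p under 0.05, which made a reversal unlikely in advance. Causes were not tested.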

Other observations

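Without VTA KO replicate 1, 9 of the 15 probesets that passed adjustment carry 1 symbol: Rgs5, Car4, Sparc, Lgals1, Spef2, Ppic, Myl9, Postn and Igfbp7. In that fit VTA KO was replicate 2 alone, on which the mean level of the pericyte and smooth muscle markers was 5.93, against 7.25 on replicate 1. Sparc, a matrix protein, and Myl9, a myosin light chain of smooth muscle, had regional differences of 2.82 and 5.61 there, and Igfbp7, an insulin-like growth factor binding protein of vessels, 3.31. The remaining 6 carry several symbols or none.

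Probesets without a single symbol made up most of the rarest pattern: of the 75 probesets lower in SNc KO and higher in VTA KO, 68 carry no symbol or several, against 38 of the 77 with the reverse signs.

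The Y-linked genes Kdm5d, Eif2s3y and Uty had regional differences of -0.39, -0.30 and -0.12, and Xist read 8.78 to 9.55 on the 8 arrays.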
